A study of Mus musculus with 17 samples.

Results

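Collagen IV, the nidogens, perlecan and agrin were followed in the pressure-overloaded mouse heart through 10 genes, taken by symbol from the 21798 genes of the expression table: Col4a1, Col4a2, Col4a3, Col4a4, Col4a5, Col4a6, Nid1, Nid2, Hspg2 and Agrn. They were named by family and not by a cut on measured values, but with earlier results of these data known. All 10 passed the filter on low values. The 6 collagen IV genes are compared above all as pairs of neighbours.

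Basement membranes are thin sheets of extracellular matrix that lie against endothelial cells, around pericytes and smooth muscle cells and around each cardiomyocyte. Collagen IV is their network-forming collagen: chains assemble into triple-helical trimers inside the cell, and the trimers join through their ends outside it. The α1 and α2 chains form the trimer found in nearly all basement membranes. The α3, α4 and α5 chains make a trimer with a narrower distribution that is best known from kidney, lung, eye and inner ear. The α5 and α6 chains make another trimer, with a narrower distribution of its own. Nidogens link the collagen IV network to laminin, and perlecan (Hspg2) and agrin (Agrn) are heparan sulphate proteoglycans that bind laminin and dystroglycan.

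Bulk RNA-sequencing of snap-frozen left ventricular apex was available for 17 mice, 1 library each. All were male C57Bl6/J mice, 7 to 8 weeks old at surgery. TAC Veh mice (n = 3) had transverse aortic constriction (TAC), a ligature on the aortic arch that raises the pressure load on the left ventricle, and saline by gavage. TAC 29P mice (n = 6) had TAC and 29P, an oral prodrug of a peptide that binds αvβ3 integrin, in 6 gavages of 50 µg/kg over 2 weeks beginning 1 week after surgery. Sham Veh (n = 5) and Sham 29P mice (n = 3) had the same operation without the ligature, followed by saline or 29P. Tissue was taken 3 weeks after surgery. The study left out 1 TAC Veh library because it clustered with Sham mice, so the 3 TAC Veh libraries were in part chosen by their expression. Libraries are named below by S and the number in their label.

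Values are given as CPM, read counts scaled to the total of each library, the unit the authors deposited. Depth, estimated from the step between low values, was 14.2 to 23.8 M reads per library. Cardiomyocyte markers summed to 46547 to 63384 CPM. Atrial markers, which left ventricular tissue should lack, summed to 1529 to 2543 CPM in S18 (TAC 29P), S19 and S20 (both Sham Veh) and to 0.353 to 5.75 CPM in the other 14 libraries. Each header of the table holds a number before the S number, taken here as an animal number, although the headers do not say what it is. These numbers fall into 4 runs of nearby numbers, and the 3 libraries with atrial transcripts make up the last of them. Run and atrial transcripts therefore cannot be told apart, and what a run stands for is not known. S4 (Sham 29P) and S5 (Sham Veh) had close values for most of the 10 genes, but over all genes no pair of the 136 pairs of libraries differed by as little as sampling noise, and both were kept.

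The 6 collagen IV genes lie in 3 head-to-head pairs, in which both genes are read outward from neighbouring start sites. Positions are in GRCm38 (mm10) and follow the GENCODE vM21 annotation. Col4a1 (chr8:11198423-11312826, minus strand) and Col4a2 (chr8:11312805-11449287, plus strand) overlap by 22 bases at their starts. Col4a4 (chr1:82448423-82586849, minus strand) and Col4a3 (chr1:82586921-82722059, plus strand) have 71 bases between their starts. Between Col4a6 (chrX:141165403-141474076, minus strand) and Col4a5 (chrX:141475385-141689234, plus strand) lie 1308 bases.

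The bases at these starts are printed because they are what the members of a pair share or do not share. They come from RefSeq windows on GRCm38.p6 that reach from 250 bases before to 50 bases after a start. Windows existed for 8 of the 10 genes, and none was used for Col4a3 or Nid2. Capitals mark the letters of 4 motifs searched on both strands. They were GGGCGG (in 35.7% of all 32851 windows), CCAAT (37.4%), TATAAA (13.6%) and CCCTCCCC (10.8%).
Col4a1 and Col4a2, chr8:11312805-11312826, plus strand, the overlap of both genes: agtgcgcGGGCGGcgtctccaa
Col4a3 and Col4a4, chr1:82586850-82586920, minus strand, all bases between the starts: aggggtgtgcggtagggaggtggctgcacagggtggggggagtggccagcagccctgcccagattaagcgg
Col4a5, chrX:141475169-141475384, plus strand, before the start: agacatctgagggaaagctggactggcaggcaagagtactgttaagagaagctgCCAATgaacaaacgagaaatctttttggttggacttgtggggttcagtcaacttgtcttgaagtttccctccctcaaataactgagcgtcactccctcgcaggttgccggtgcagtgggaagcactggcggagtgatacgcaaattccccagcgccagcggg
Col4a6, chrX:141474077-141474326, minus strand, before the start: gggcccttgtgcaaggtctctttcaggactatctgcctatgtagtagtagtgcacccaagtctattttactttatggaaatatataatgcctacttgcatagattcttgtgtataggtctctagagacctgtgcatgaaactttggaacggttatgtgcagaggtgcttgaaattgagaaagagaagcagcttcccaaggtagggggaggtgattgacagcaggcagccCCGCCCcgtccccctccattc

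G and C made up 72.7% of the Col4a1 and Col4a2 overlap and 69.0% of the stretch between Col4a3 and Col4a4, against 52.3% before Col4a5 and 47.6% before Col4a6. GGGCGG stood once in the first stretch and, as CCGCCC, once before Col4a6, and CCAAT stood once before Col4a5. The whole Col4a5 window also held 1 GGGCGG and 1 CCCTCCCC (as GGGGAGGG), whose letters reach past the end of the printed stretch. The whole Col4a1 window held 1 GGGCGG, 1 CCAAT and 1 CCCTCCCC, and the whole Col4a2 window held 3, 1 and 1. The windows of Col4a1 and Col4a2 overlap, so these matches are in part the same letters. The shares above are for whole windows, which are longer than the printed stretches. The Col4a3 and Col4a4 stretch held none of the 4 motifs. Such matches describe letters and not binding.

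Per kilobase of exon, the 10 genes spanned a wide range of levels in Sham Veh hearts. Col4a1 and Col4a2 had the highest mean levels, 42.7 ± 12.4 and 30.2 ± 10.4 CPM per kb (SD, n = 5). Nid1 followed at 21.0 ± 1.94 and Hspg2 at 13.6 ± 5.99 CPM per kb. Neighbours from Col4a1 down to Hspg2 had overlapping ranges between mice, although in each of the 5 libraries the gene placed higher was also the higher one. A second tier, separated from Hspg2 without overlap, held Agrn at 4.42, Col4a5 at 3.73 and Nid2 at 3.47 CPM per kb, which did not differ beyond their spread. The lowest tier was Col4a4 at 0.865, Col4a3 at 0.412 and Col4a6 at 0.219 CPM per kb. Col4a4 was above both others in all 5 libraries, and Col4a3 was above Col4a6 in 4 of 5. The mean order was the same in the other groups, apart from Nid2 above Col4a5 in TAC 29P hearts. There Col4a1 stood at 101 ± 17.4 and Col4a6 at 0.201 ± 0.186 CPM per kb (SD, n = 6), and in TAC Veh hearts at 114 ± 35.2 and 0.187 ± 0.0455 CPM per kb (SD, n = 3).

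**Figure D1:**
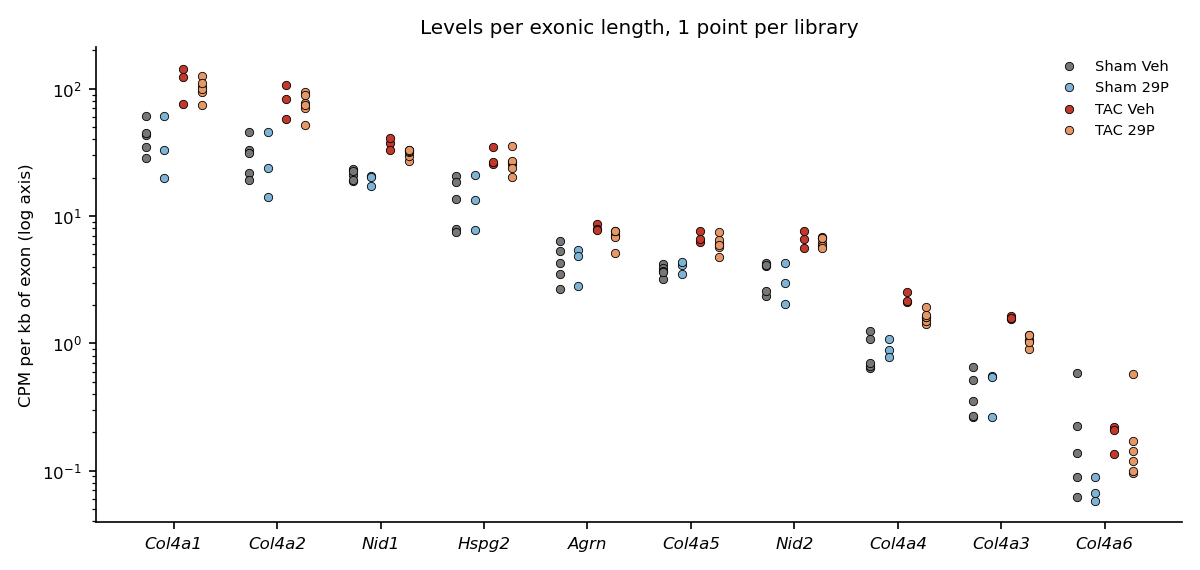
Levels of the 10 genes per kilobase of exon (CPM per kb, log axis) in the 4 groups, with 1 point per library. Col4a1 was highest in every group, with a mean of 42.7 CPM per kb in Sham Veh and 114 in TAC Veh, and Col4a6 had the lowest mean in each group.

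Whether pressure overload changed these genes was asked by comparing TAC Veh with Sham Veh. Of the 10 genes, 9 were higher in TAC Veh hearts at the unadjusted p of 0.05 that the study used, beside 37.4% of all 16218 genes tested, and none was lower, beside 3.48%. After Benjamini-Hochberg adjustment over all genes the same 9 stayed past 0.05, beside 22.5% of all genes, and the 3 TAC Veh libraries lay above all 5 Sham Veh libraries for the same 9, beside 27.6% of all genes. Their folds ran from 1.76 for Nid1 to 4.12 for Col4a3, and Col4a6 was the exception. In bulk tissue a change in the number of cells that make a transcript and a change in the transcript per cell cannot be told apart. Group differences below are log2 fold changes with their standard error (SE) from limma, fitted to all 16218 genes and 17 libraries, and their p-values measure the spread between these mice.

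Col4a1 and Col4a2 encode the chains of the common trimer. Col4a1 stood at 459, 261, 323, 213 and 336 CPM in Sham Veh libraries S5, S6, S13, S19 and S20 and at 1074, 562 and 925 CPM in TAC Veh libraries S2, S12 and S16. The corresponding Col4a2 values were 303, 145, 217, 128 and 206 CPM in Sham Veh and 712, 380.5 and 548 CPM in TAC Veh. S12 was the lowest TAC Veh library for both genes, and even it lay above S5, the highest Sham Veh library. The log2 fold change was 1.42 (SE 0.30, limma adjusted p = 0.00576) for Col4a1 and 1.48 (SE 0.32, limma adjusted p = 0.00676) for Col4a2. Reads in the 22 shared bases, and reads from Col4a1 and Gm44716 or from either gene and an antisense neighbour, cannot be assigned with certainty, since no strand setting is given in the sources used here.

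Col4a3 and Col4a4 encode chains that trimerise with the α5 chain. Col4a3 stood at 5.17, 2.64, 6.51, 3.49 and 2.70 CPM in Sham Veh and at 16.5, 15.4 and 15.7 CPM in TAC Veh. Col4a4 stood at 11.4, 6.85, 13.2, 7.01 and 7.39 CPM in Sham Veh and at 26.6, 22.5 and 22.7 CPM in TAC Veh, in the same order of libraries. The TAC Veh values of Col4a3 were close together, while its Sham Veh values were spread between S6 at the low end and S13 at the high end, and the groups did not overlap for either gene. The log2 fold change was 2.04 (SE 0.28, limma adjusted p = 0.000628) for Col4a3, the largest of the 10 genes, and 1.44 (SE 0.20, limma adjusted p = 0.000672) for Col4a4. Col4a3, Col4a4 and Nid1 are genes that the study itself picked out from these libraries, so their changes are not independent evidence.

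Col4a5 and Col4a6 behaved unlike each other. Col4a5, whose chain can join α3 and α4 or α6, stood at 28.1, 21.6, 26.3, 24.8 and 24.6 CPM in Sham Veh and at 50.9, 42.3 and 44.5 CPM in TAC Veh. Its log2 fold change was 0.87 (SE 0.13, limma adjusted p = 0.00116). Col4a6, whose chain pairs with α5, stood at 0.715, 0.492, 1.09, 1.79 and 4.65 CPM in Sham Veh and at 1.75, 1.08 and 1.65 CPM in TAC Veh, with overlapping groups and a log2 fold change of 0.21 (SE 0.63, limma p = 0.742, exact permutation p = 0.857) that turned to −0.11 under scaling by trimmed mean of M values (TMM). The highest value, 4.65 CPM, belonged to S20, 1 of the libraries with atrial transcripts.

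Nid1 and Nid2 encode nidogens, and Nid1 was the more abundant of them in each library. Nid1 stood at 146, 130.5, 162, 134 and 156 CPM in Sham Veh and at 259.6, 228 and 283 CPM in TAC Veh. Nid2 stood at 22.2, 12.1, 20.9, 13.3 and 21.3 CPM in Sham Veh and at 33.9, 29.2 and 39.5 CPM in TAC Veh. The groups did not overlap for either gene. Nid1 had the smallest fold of the 9 genes that rose but also the smallest error, with a log2 fold change of 0.82 (SE 0.10, limma adjusted p = 0.000428), and Nid2 rose by 0.96 (SE 0.22, limma adjusted p = 0.00846).

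Hspg2 (perlecan) and Agrn (agrin) varied widely between Sham Veh mice. Hspg2 stood at 294, 113, 265, 106 and 193 CPM in Sham Veh and at 495, 367 and 382 CPM in TAC Veh. Agrn stood at 49.2, 32.3, 59.4, 24.7 and 39.5 CPM in Sham Veh and at 80.8, 72.8 and 71.8 CPM in TAC Veh. S5 and S13 were the high Sham Veh libraries for both proteoglycans, and S6 and S19 the low ones, yet the groups did not overlap. S6 and S19 also had the highest shares of mitochondrial transcripts in Sham Veh, 38.8% and 35.2%, and the most genes listed at 0, 2754 and 2376. The part of library quality in the low values was not tested. The log2 fold change was 1.20 (SE 0.33, limma adjusted p = 0.0169) for Hspg2 and 0.94 (SE 0.24, limma adjusted p = 0.0136) for Agrn.

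**Figure D2:**
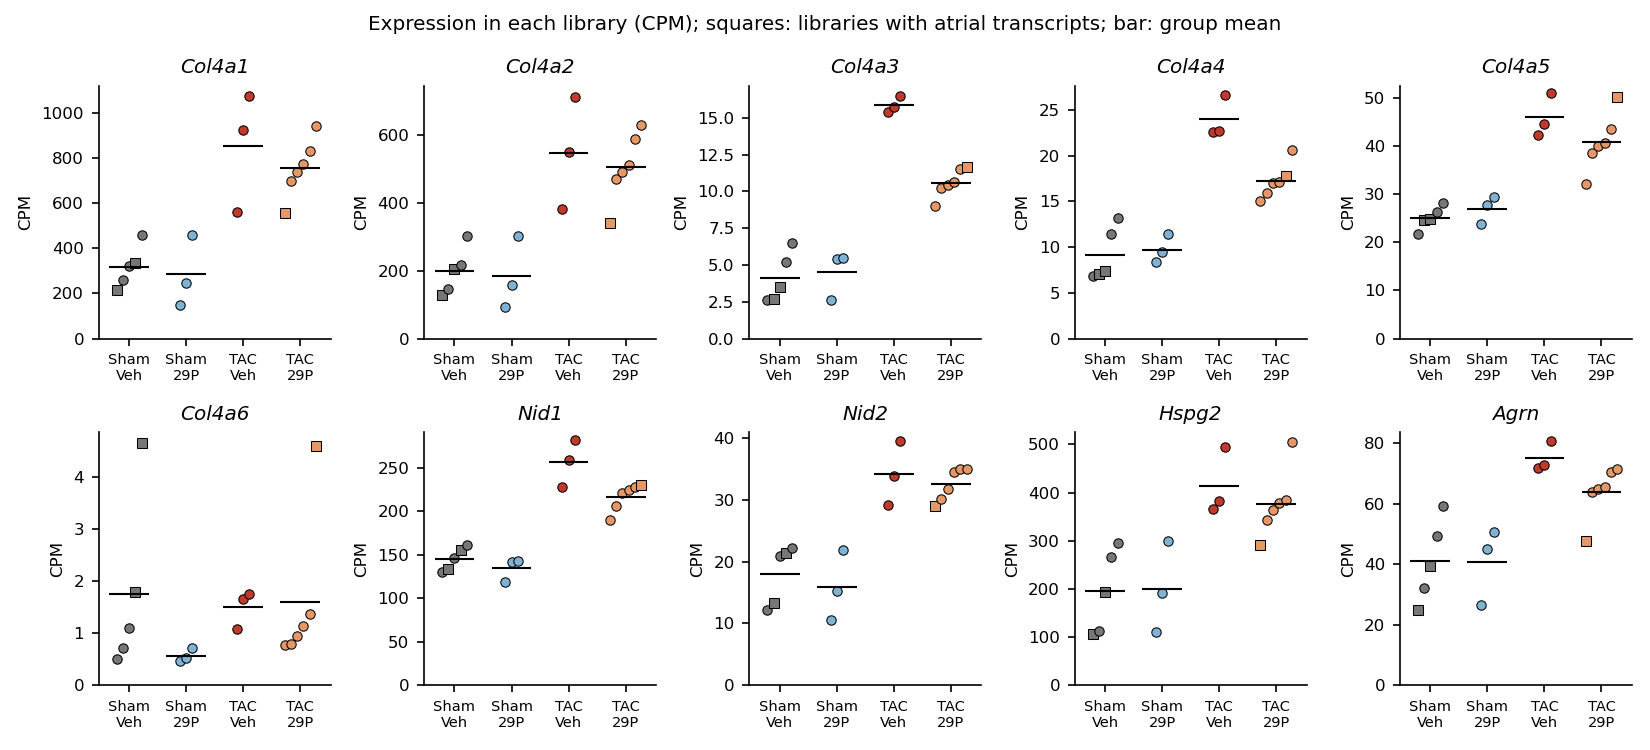
CPM of each of the 10 genes by group, with 1 point per library, bars at group means and squares for libraries with atrial transcripts. TAC libraries lay above Sham libraries without overlap for Col4a1 to Col4a5, Nid1 and Nid2, as with Col4a1 at 149 to 459 CPM in Sham and 555 to 1074 CPM in TAC, but not for Col4a6, Hspg2 and Agrn. The share of all genes without overlap was not counted for TAC and Sham libraries pooled over treatment.

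Scaling bore on the size of these changes. The median gene had a log2 fold change of 0.35 in TAC Veh against Sham Veh in CPM, and 6065 genes were higher and 565 lower, while under TMM scaling the median was 0.02 with 2110 higher and 2135 lower. Mitochondrial transcripts took 29.1 to 40.0% of reads in Sham and 23.6 to 29.4% in TAC libraries. Relative to the median gene, Col4a3 rose by 1.70, Col4a2 by 1.13, Col4a4 by 1.09, Col4a1 by 1.07, Hspg2 by 0.86, Nid2 by 0.62, Agrn by 0.59, Col4a5 by 0.53 and Nid1 by 0.47, and Col4a6 stood at −0.14, all as log2 fold changes. Under TMM the same number of genes, 9, was higher, and the median over the 10 genes was 0.76 in place of 1.08. Within the first run of animal numbers, with 1 TAC Veh and 2 Sham Veh libraries, all 10 genes were higher by 0.91 to 2.16. In the second run, with 1 library of each group, 9 were higher and the differences ran from −0.02 to 1.24. The share of all genes higher was not counted within runs.

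The 29P-treated mice gave a second comparison of TAC with Sham, between libraries other than those of the first. Its limma p-values are not independent of the first, since the spread of each gene was estimated from all libraries together. Of the 10 genes, 9 were again higher in TAC 29P than in Sham 29P, beside 43.5% of all genes, also after adjustment, beside 31.4%, and none was lower, beside 1.96%. The 6 TAC 29P libraries lay above the 3 Sham 29P libraries for 8 genes, beside 25% of all genes: Col4a6 was among them and Hspg2 and Agrn were not. The median log2 fold change was 1.05 over the 10 genes and 0.37 over all genes.

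Col4a1 stood at 459, 149 and 246 CPM in Sham 29P libraries S4, S14 and S15, and in TAC 29P its lowest, median and highest values were 555, 755 and 943 CPM. Col4a2 stood at 301, 93.8 and 159 CPM in Sham 29P and at 340.4, 500.3 and 627 CPM as lowest, median and highest in TAC 29P. S4 was the high and S14 the low Sham 29P library for both, and S18 was the lowest TAC 29P library. The log2 fold changes were 1.54 (SE 0.29, limma adjusted p = 0.00303) and 1.59 (SE 0.31, limma adjusted p = 0.00352).

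Col4a3 stood at 5.49, 5.42 and 2.64 CPM in Sham 29P and at 9.03, 10.5 and 11.6 CPM as lowest, median and highest in TAC 29P. Col4a4 stood at 11.4, 9.45 and 8.33 CPM in Sham 29P and at 15.02, 17.1 and 20.6 CPM in TAC 29P. Unlike Col4a1 and Col4a2, neither had its lowest value in S14. Col4a3 rose by 1.30 (SE 0.27, limma adjusted p = 0.00426) and Col4a4 by 0.83 (SE 0.19, limma adjusted p = 0.00738) on the log2 scale.

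Col4a5 stood at 27.8, 29.3 and 23.7 CPM in Sham 29P and at 32.1, 40.3 and 50.2 CPM as lowest, median and highest in TAC 29P, and its log2 fold change of 0.59 (SE 0.13, limma adjusted p = 0.00541) was the smallest of the 10. Col4a6 stood at 0.461, 0.705 and 0.528 CPM in Sham 29P and at 0.760, 1.04 and 4.59 CPM in TAC 29P. All 6 TAC 29P values of Col4a6 lay above all 3 Sham 29P values, but the highest came from S18, the next stood at 1.36 CPM, and the log2 fold change of 1.18 (SE 0.61) missed the threshold (limma p = 0.0670, exact permutation p = 0.0714).

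Nid1 stood at 143, 119 and 141 CPM in Sham 29P and at 189, 223 and 230.5 CPM as lowest, median and highest in TAC 29P, and rose by 0.69 (SE 0.10, limma adjusted p = 0.000903) on the log2 scale. Nid2 stood at 21.9, 10.5 and 15.3 CPM in Sham 29P and at 29.0, 33.2 and 35.1 CPM in TAC 29P, and rose by 1.10 (SE 0.22, limma adjusted p = 0.00352). In this comparison the order of the nidogens was the same as in vehicle-treated mice, with the larger fold for Nid2 and the smaller error for Nid1.

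Hspg2 stood at 299, 110.3 and 191 CPM in Sham 29P and at 290.0, 371 and 505 CPM as lowest, median and highest in TAC 29P. Agrn stood at 50.5, 26.4 and 45.0 CPM in Sham 29P and at 47.6, 65.3 and 71.3 CPM in TAC 29P. For both proteoglycans S18 lay below S4, so the groups overlapped. The log2 fold changes were 1.01 (SE 0.31, limma adjusted p = 0.0252) and 0.70 (SE 0.23, limma adjusted p = 0.0327). Without S14 they were 0.64 and 0.41, past the unadjusted threshold no longer (limma adjusted p = 0.205 and 0.255). S14 had the lowest depth of all libraries, 14.2 M reads, the highest mitochondrial share, 40.0%, and the most genes listed at 0, 3567. Under TMM scaling Agrn at 0.34 and Col4a5 at 0.24 also missed it (limma adjusted p = 0.245 and 0.204), leaving 7 genes higher beside 2519 higher and 2155 lower of all genes, where CPM gave 7062 and 318. Within the first run, with 5 TAC 29P and 1 Sham 29P library, all 10 genes were higher by 0.39 to 1.08. Here too the share of all genes was not counted.

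**Figure D3:**
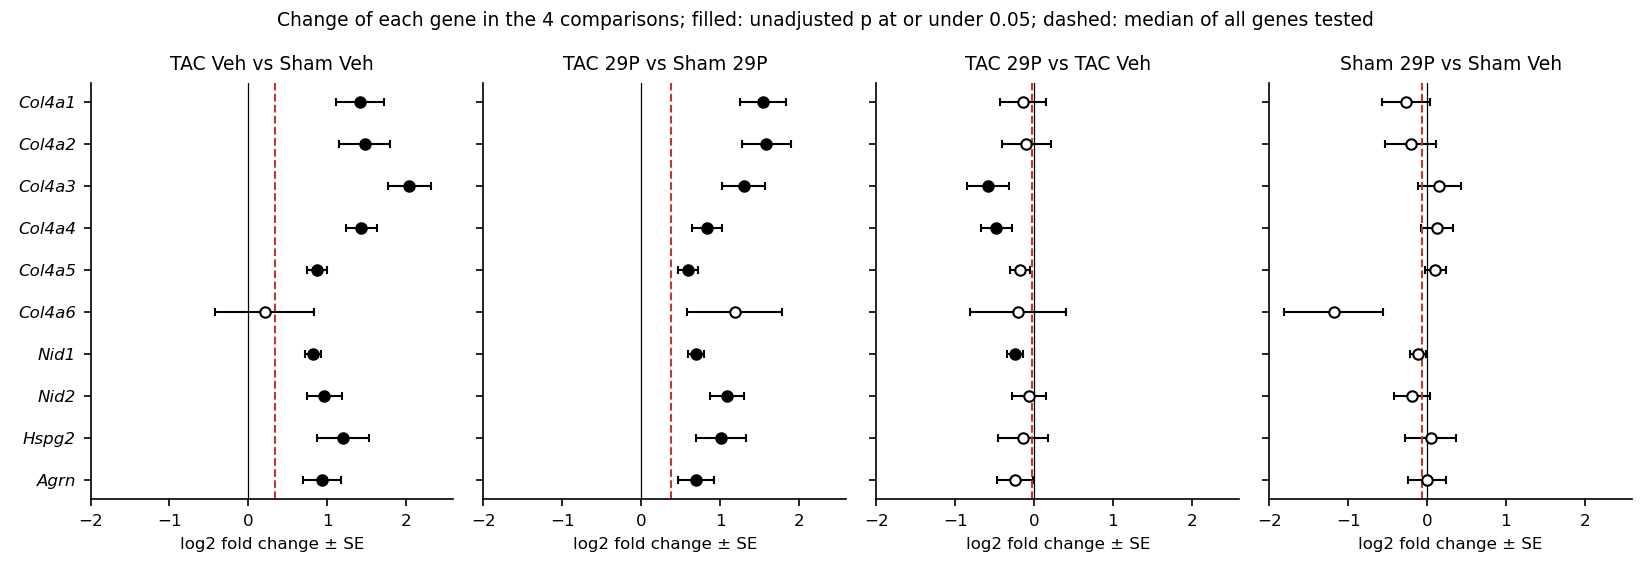
Log2 fold changes of the 10 genes with standard errors in the 4 comparisons, with filled symbols at an unadjusted limma p of 0.05 or less and a dashed line at the median of all 16218 genes. In both TAC comparisons 9 genes were past the threshold and above the median gene (0.35 and 0.37), and within TAC 3 genes were below 0 and past it.

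What 29P changed in loaded hearts was asked by comparing TAC 29P with TAC Veh, which shares a group of libraries with each comparison above. Col4a3, Col4a4 and Nid1 were lower in TAC 29P at an unadjusted p of 0.05, 3 of 10 genes beside 0.931% of all genes, and none was higher, beside 1.05%. After adjustment 0% of the 16218 genes passed (limma adjusted p = 0.999998 for each of the 10). As said, the study picked these 3 genes from the same libraries. All 10 log2 fold changes were below 0, with a median of −0.19, and the median over all genes was −0.02.

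For Col4a3 the 6 TAC 29P libraries, at 9.03 to 11.6 CPM, lay below the 3 TAC Veh libraries, at 15.4 to 16.5 CPM. For Col4a4 they lay at 15.02 to 20.6 CPM, below 22.5 to 26.6 CPM. Agrn was the other gene without overlap, at 47.6 to 71.3 CPM in TAC 29P and 71.8 to 80.8 CPM in TAC Veh, so that 3 genes were separated downward, beside 0.987% of all genes, and none upward, beside 0.839%. For Nid1 the ranges, 189 to 230.5 CPM and 228 to 283 CPM, touched through S12. Between TAC Veh and TAC 29P, Col4a3 fell by 0.59 (SE 0.27, limma p = 0.0413), Col4a4 by 0.48 (SE 0.19, limma p = 0.0238) and Nid1 by 0.24 (SE 0.10, limma p = 0.0277) on the log2 scale, and the exact two-sided permutation p was 0.0119, the smallest that 84 splits give, for the collagens and 0.0357 for Nid1. The log2 fold change of Agrn was −0.24 (SE 0.23, limma p = 0.313, exact permutation p = 0.0595).

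The major chains showed no such separation. Col4a1 differed by −0.14 (SE 0.29, exact permutation p = 0.571), Col4a2 by −0.10 (SE 0.31, p = 0.714), Nid2 by −0.06 (SE 0.22, p = 0.607) and Hspg2 by −0.14 (SE 0.31, p = 0.440), with errors as large as or larger than the differences. Col4a5 differed by −0.18 (SE 0.13, exact permutation p = 0.250) and Col4a6 by −0.21 (SE 0.61, p = 0.786).

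The 3 calls within TAC did not hold in every fit. Of 17 fits that each left out 1 library, Col4a4 passed in 16, Nid1 in 14 and Col4a3 in 10, with no change of sign. When the run of animal numbers entered the fit none of the 3 passed the unadjusted threshold, at −0.56 for Col4a3, −0.44 for Col4a4 and −0.21 for Nid1. None passed without TAC Veh library S2 either, at −0.56, −0.40 and −0.23 in the same order. Without S16 only Col4a4 passed, and Nid1 stood at −0.17. The same held without TAC 29P library S1, with Nid1 at −0.21 and Col4a3 at −0.54. Col4a3 was also lost without S12 (−0.61), S16 (−0.59), S3 (−0.59), S9 (−0.59) or S11 (−0.58). In the first run of animal numbers, with 5 TAC 29P libraries and 1 TAC Veh library, all 10 genes were lower in TAC 29P by 0.03 to 0.84 in size. The share of all genes lower there was not counted. That TAC Veh library, S2, had a TMM scaling factor of 1.20, above the 1.06 to 1.17 of those 5 libraries. Red blood cell transcripts moved with this comparison: all 4 haemoglobin genes measured were lower in TAC 29P, with Hbb-bt farthest from 0 at −1.17 (SE 0.43), and their sum was 3052 to 4933 CPM in TAC Veh and 1027 to 4118 CPM in TAC 29P. Among 12 fibroblast markers only Postn was past the threshold, lower at −0.93 (SE 0.42), and no endothelial, pericyte or smooth muscle marker was past the threshold. The part of blood or of cell composition in the result was not tested.

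In unloaded hearts 29P left no gene of the 10 past the threshold. Sham 29P against Sham Veh, which also reuses groups of the comparisons above, gave 0 of 10 genes in either direction by limma at an unadjusted p of 0.05 and 0 by the exact permutation test, beside 1.6% of all genes higher and 5.89% lower, and the groups overlapped for all 10, beside 2.14% of all genes without overlap. The difference farthest from 0 was that of Col4a6, −1.18 (SE 0.63, limma p = 0.0758, exact permutation p = 0.179), with S19 and S20 at the top of Sham Veh. It passed the unadjusted threshold without S5 (−1.39), S6 (−1.52) or S18 (−1.18), and without S4 Col4a1 passed at −0.69 (limma adjusted p = 0.224). For the other 9 genes the log2 fold changes ran from −0.27 for Col4a1 to 0.16 for Col4a3. The change with TAC was smaller in 29P than in Veh mice for Col4a4, by 0.60 on the log2 scale (interaction −0.60, SE 0.28, past the unadjusted threshold, limma adjusted p = 0.998), 1 of 10 genes lower beside 0.863% of all genes, and none was higher, beside 1.98%. For Col4a3 the interaction was −0.75 (SE 0.38) and missed the threshold, which it passed under TMM at −0.78. Without the 3 libraries with atrial transcripts the Col4a4 interaction was −0.42 and missed the threshold, and it was lost as well without any 1 of S1, S2, S3, S4, S6, S9, S11, S12, S14, S16, S19 or S20, at −0.65 to −0.48. Col4a3 passed without S5 (−0.85), S13 (−0.94) or S15 (−1.09).

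The pairs were compared through the ratio of partners within each library, which cancels the scaling of that library. Over 7 ratios and 4 comparisons, 28 exact two-sided permutation tests were made, and none passed 0.05 after Benjamini-Hochberg adjustment, the lowest adjusted p being 0.25. The smallest p these tests can give is 0.0179 for 56 splits and 0.0119 for 84. A single ratio at that floor could not pass after adjustment over 28 tests, so the adjusted values cannot decide on 1 ratio alone. Col4a2 over Col4a1 was nearly fixed: it lay between 0.555 and 0.708 in all 17 libraries, while the level of Col4a1 itself ran from 149 to 1074 CPM. The group means of the log2 ratio were −0.69 ± 0.11 (SD, n = 5) for Sham Veh, −0.64 ± 0.03 (n = 3) for Sham 29P, −0.64 ± 0.10 (n = 3) for TAC Veh and −0.59 ± 0.07 (n = 6) for TAC 29P. The 4 comparisons differed by 0.04 to 0.06 (exact permutation p = 0.333 to 0.554). Per kilobase, Col4a1 was 1.25 to 1.60 times Col4a2, with a median of 1.34.

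Col4a4 over Col4a3 moved with TAC. The CPM ratio was 2.01 to 2.74 in Sham Veh and 1.44 to 1.62 in TAC Veh, without overlap. The log2 ratio was 1.20 ± 0.20 (SD, n = 5) and 0.59 ± 0.09 (n = 3), a difference of −0.61 (exact permutation p = 0.0179, the smallest that 56 splits give, adjusted p = 0.25). In Sham 29P the CPM ratio was 1.74 to 3.16 and in TAC 29P 1.53 to 1.79. Those groups overlapped through S14, and the log2 difference was −0.47 (exact permutation p = 0.0238, adjusted p = 0.25), which went to p = 0.0714 without S4 and to −0.22 with p = 0.0714 without S15. A lower ratio here is a larger log2 change of Col4a3 than of Col4a4, and per kilobase Col4a4 was the higher of the pair in all 17 libraries, by 1.36 to 2.96 times. Within TAC, 29P left the ratio at a difference of 0.11 (exact permutation p = 0.131).

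Col4a6 over Col4a5 was the loosest pair, at 0.0166 to 0.189 over the 17 libraries. S20, S19 and S18 were the 3 highest, and per kilobase Col4a5 was 6.28 to 71.4 times Col4a6. No comparison of this ratio had an exact permutation p under 0.125. At about 9 to 93 reads per library Col4a6 was also the gene with the least depth behind it, whereas Col4a3 had about 45 to 330 reads.

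**Figure D4:**
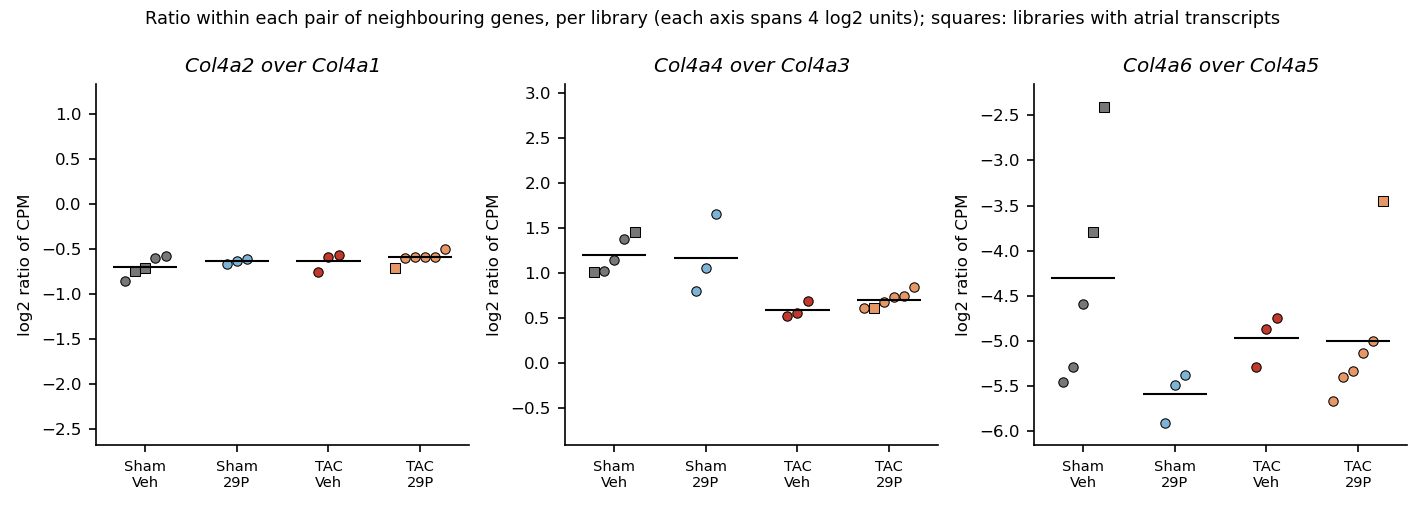
Log2 ratios of partner genes by group, with 1 point per library, bars at group means and squares for libraries with atrial transcripts. Col4a2 over Col4a1 stayed between CPM ratios of 0.555 and 0.708 in all 17 libraries, Col4a4 over Col4a3 was lower in TAC Veh (1.44 to 1.62) than in Sham Veh (2.01 to 2.74), and Col4a6 over Col4a5 was spread from 0.0166 to 0.189.

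Sums of pairs, in CPM, gave the balance between gene pairs and not between trimers, since the α5 chain can join α3 and α4 or α6. The sum of Col4a5 and Col4a6 was mostly Col4a5, as Col4a6 stood at 0.0166 to 0.189 of it. Col4a3 and Col4a4 together over Col4a1 and Col4a2 together showed no difference past the threshold in any of the 4 comparisons (exact permutation p = 0.143 to 0.482), and within TAC 29P mice differed from Veh mice by −0.40 on the log2 scale (exact permutation p = 0.167). Col4a5 and Col4a6 over Col4a1 and Col4a2 was lower in TAC 29P than in Sham 29P by 0.95 in size, at log2 ratios of −4.89 ± 0.45 (SD, n = 6) against −3.94 ± 0.87 (n = 3) (exact permutation p = 0.0357, adjusted p = 0.25). This was lost, at p of 0.0714 to 0.179, without any 1 of S1, S3, S4, S8, S9, S11, S14 or S15. In Veh mice the same ratio differed by −0.62 (exact permutation p = 0.0893), and passed without S12 (p = 0.0476) or S5 (p = 0.0286).

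Nid2 over Nid1 was higher in TAC 29P than in Sham 29P by 0.40 on the log2 scale (exact permutation p = 0.0357, adjusted p = 0.25), and per kilobase Nid1 was 4.38 to 8.42 times Nid2. Without any 1 of S1, S3, S8, S11, S14 or S15 the p was 0.0893 to 0.143. In Veh mice the difference was 0.15 (exact permutation p = 0.429). Agrn over Hspg2 showed no difference past the threshold in the 4 comparisons (exact permutation p = 0.0833 to 0.893), and without S4 that of TAC 29P and Sham 29P was −0.48 (p = 0.0357). Hspg2 was 2.27 to 4.59 times Agrn per kilobase.

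The 3 highest Col4a6 values came from the libraries with atrial transcripts, but not in the order of their atrial levels: S19, with the highest atrial sum, had the lowest Col4a6 of the 3 and lay close to TAC Veh library S2 at 1.75 CPM. In Sham Veh it stood at 1.79 and 4.65 CPM in S19 and S20 and at 0.492 to 1.09 CPM in the other 3 libraries, and in TAC 29P at 4.59 CPM in S18 and at 0.760 to 1.36 CPM in the other 5. Without these 3 libraries Col4a6 was higher in TAC Veh than in Sham Veh by 1.004 (limma adjusted p = 0.0859) and in TAC 29P than in Sham 29P by 0.81 (limma adjusted p = 0.0822) on the log2 scale, both past the unadjusted threshold. With the run in the fit the values were 0.94 and 1.02, also past it (limma adjusted p = 0.116 and 0.130). Under TMM scaling without the 3 libraries, a setting chosen after seeing the data, they were 0.68 and 0.46 and missed it (limma adjusted p = 0.322 and 0.364). Mesothelial markers summed to 14.4 CPM in S20, 11.8 in S16, 11.2 in S2, 9.0 in S18 and 8.39 in S15, and to 3.96 to 6.75 CPM in the others. The marker Wt1 alone reached 11.6 CPM in TAC Veh, more than the whole sum of S2, so nearly all of the S16 sum was Wt1. The part of atrial or mesothelial tissue in the Col4a6 values was not tested.

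**Figure D5:**
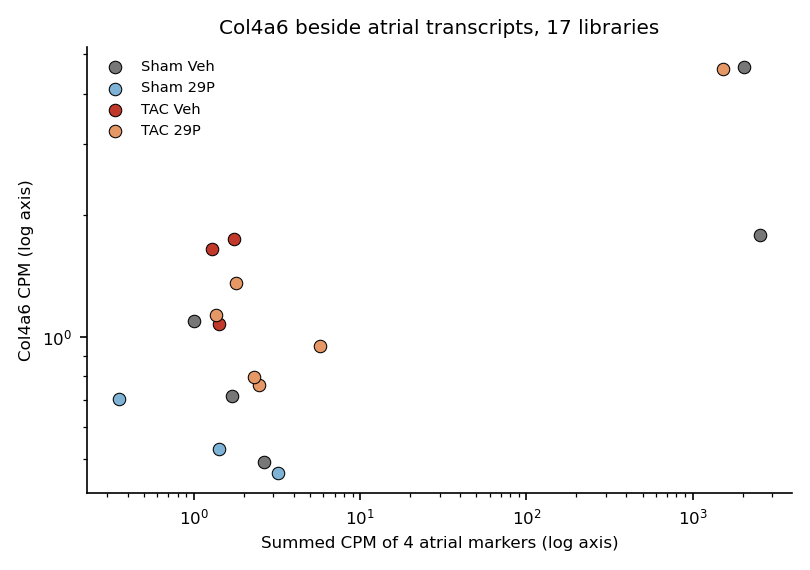
Col4a6 (CPM) against the summed atrial markers (CPM, log axis) in the 17 libraries, coloured by group. The 3 libraries with 1529 to 2543 CPM of atrial markers held 1.79, 4.59 and 4.65 CPM of Col4a6, and the other 14 held 0.461 to 1.75 CPM.

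Across the 17 libraries the genes whose pattern was most like that of each member were found from Pearson's r of log2(CPM + 0.1) over the 16217 other genes. These r values describe libraries that share group, scaling and depth, and carry no test. Col4a1 and Col4a2 were each other's nearest gene (r = 0.996, and 0.988 after group means were subtracted), followed by Kctd17 (0.982 and 0.987) for both, Col6a2 (0.980) for Col4a1 and Trp53 (0.986) for Col4a2. Col4a3 and Col4a4 were also each other's nearest gene (r = 0.977), followed by Prkab2 (0.963) and Mapre2 (0.955) for Col4a3 and by Prrg3 (0.968) and Chfr (0.967) for Col4a4. After group means were subtracted the r of that pair was 0.864, and the partner then ranked 5th for Col4a3 and 9th for Col4a4.

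The remaining pairs were less close. Col4a6 ranked 10482nd for Col4a5 (r = 0.378), whose nearest genes were Kif5b (0.970), Mtmr6 (0.969) and Slain2 (0.967), and Col4a5 ranked 3937th for Col4a6, whose nearest were Pam (0.872), C7 (0.865) and Prkag2 (0.857). Over the 14 libraries without atrial transcripts that pair had r = 0.838, Col4a5 ranked 41st for Col4a6 and Col4a6 ranked 1324th for Col4a5. Nid2 ranked 315th for Nid1 (r = 0.918), behind Sparcl1 (0.978), Adamts2 (0.974) and Hip1 (0.971), and Nid2 was nearest to Mrtfa (0.981), Lamb1 (0.981), a laminin chain of basement membranes, and Septin9 (0.977). Hspg2 and Agrn (r = 0.961) shared Gtpbp2 (0.985 and 0.971) among their nearest genes, beside Notch3 (0.988) and Rnf44 (0.985) for Hspg2 and Arap3 (0.976) and Plcg1 (0.974) for Agrn. With group means subtracted, the r of the 3 nearest genes of each member lay between 0.733 for Mapre2 with Col4a3 and 0.988 for the Col4a1 and Col4a2 pair.

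Other basement membrane genes were read from lists chosen by their roles. Among partners (laminins, collagens XV and XVIII and other matrix proteins) 19 of 31 tested genes were higher and 1 lower in TAC Veh than in Sham Veh, among genes of collagen synthesis, crosslinking and turnover 23 of 31 were higher and 0 lower, and among receptors 13 of 23 were higher and 0 lower, each beside the 37.4% of all genes higher. Their median log2 fold changes were 0.70, 0.73 and 0.61, against 0.35 for all genes. Under TMM scaling 14, 16 and 10 were higher, beside 2110 of all 16218 genes. The same lists gave 18, 24 and 18 genes higher in TAC 29P than in Sham 29P, beside 43.5% of all genes. Under TMM they gave 13, 18 and 8, beside 2519 of all 16218 genes. Within TAC no gene of the 3 lists was past the threshold with 29P by limma at an unadjusted p of 0.05, and 1 partner was lower under TMM.

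By the size of change, Col15a1, which encodes a collagen at the outer face of basement membranes, rose by 1.72 (SE 0.28, limma adjusted p = 0.00158) and Sparc, a collagen IV-binding matricellular protein, by 1.51 (SE 0.21, limma adjusted p = 0.000839) in TAC Veh against Sham Veh on the log2 scale. Frem1, a basement membrane protein of epithelia, was listed at 0 in 1 Sham Veh library and reached 0.713 CPM at most in that group, against 3.89 to 7.63 CPM in TAC Veh (limma adjusted p = 0.0246). Egflam (pikachurin, a dystroglycan ligand) was the 1 partner that was lower, by −0.39 (SE 0.17, past the unadjusted threshold, limma adjusted p = 0.1001). Among crosslinking and turnover genes Timp1, an inhibitor of matrix metalloproteinases, rose by 2.58 (SE 0.77, limma adjusted p = 0.0250), and the lysyl oxidase-like enzymes Loxl4 by 2.49 (SE 0.54, limma adjusted p = 0.00640) and Loxl3 by 1.95 (SE 0.37, limma adjusted p = 0.00360). Among receptors Itga9, an integrin α subunit, rose by 1.36 (SE 0.18, limma adjusted p = 0.000481), and the syndecans Sdc3 by 1.11 (SE 0.26, limma adjusted p = 0.00853) and Sdc1 by 1.10 (SE 0.32, limma adjusted p = 0.0235).

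Markers of the cells that lie on or near basement membranes were counted in the same comparisons. In TAC Veh against Sham Veh, 6 of 12 endothelial, 5 of 8 pericyte, 9 of 12 fibroblast, 8 of 9 macrophage and 0 of 7 smooth muscle markers were higher, beside 37.4% of all genes, and none of these was lower, while 1 of 10 cardiomyocyte markers was higher and 3 were lower. Under TMM scaling the counts of higher genes were 1, 3, 7, 7 and 0, beside 2110 of all 16218 genes, and 6 cardiomyocyte markers were lower. In TAC 29P against Sham 29P the counts of higher genes were 10, 6, 11, 8 and 2, beside 43.5% of all genes, with 2 cardiomyocyte markers higher and 1 lower. All 4 haemoglobin genes were higher in TAC Veh than in Sham Veh and 0 in TAC 29P than in Sham 29P. No mesothelial marker of the 3 tested and no atrial marker of the 3 tested was higher in either comparison. The summed endothelial markers were 725 to 1403 CPM in the 8 Sham and 1314 to 1831 CPM in the 9 TAC libraries, and those of pericytes 973 to 1367 and 1310 to 1684 CPM. Fibroblast markers summed to 1267 to 2812 CPM in Sham and 2377 to 5521 CPM in TAC libraries, macrophage markers to 225 to 431 and 482 to 768 CPM, and smooth muscle markers to 170 to 522 and 254 to 514 CPM. No marker of these 6 cell types was at 0 in any library. Their part in the rise of the collagen IV, nidogen and proteoglycan genes was not tested.

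The remaining members lie apart from one another, in Nid1 (chr13:13437551-13512269, plus strand), Nid2 (chr14:19751265-19811787, plus strand), Hspg2 (chr4:137468769-137570630, plus strand) and Agrn (chr4:156165290-156197488, minus strand). Annotated genes overlap all but Col4a4 and Agrn, and reads in those overlaps cannot be told apart. They are Rtraf at Nid2, Gm48682 at Nid1, Mir7018 at Hspg2, n-R5s213 and C430014B12Rik at Col4a3, and Gm models at the other collagen genes.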

How the data were processed

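Male mice were grouped by the surgery and treatment in their labels, with 1 library per mouse. The authors prepared mRNA libraries (NEBNext Ultra II), used Partek Flow with STAR 2.3.7 for alignment (mm10). They then deposited CPM per gene, plus 0.0001. The counting tool and strand setting are not given in the sources used here. The study excluded 2 libraries for low depth and 1 TAC Veh library for its clustering, which were not analysed here. Read counts could not be recovered (81.4 to 83.6% of low values were whole multiples of 1 read within 0.05), so the DESeq2 test that the study names was not run. With CPM values of this kind the depth sets a floor of about 0.0421 to 0.0705 CPM for 1 read.

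Log2 of the deposited CPM was fitted with limma 3.58.1 (R 4.3.3) for genes at CPM 0.5 or more in at least 3 libraries (16218 genes), with 4 group means, 13 residual degrees of freedom and trended variance. Genes at an unadjusted p of 0.05 or less were called, the limit the study set, with Benjamini-Hochberg adjustment beside it. On simulated data for TAC Veh against Sham Veh (16218 genes), 82.3% of genes changed 2-fold and 4.97% of unchanged genes were past it. Ratios were compared by exact permutation (Python 3.11.15, scipy 1.17.1, numpy 2.4.6, pandas 2.3.3, matplotlib 3.10.9). Symbols were matched to GENCODE vM21 (21245 of 21798 once, 21116 of these with the same start), which also gave exon lengths. Alternatives were TMM and median-of-ratios scaling, totals without the 16 mitochondrial-encoded genes, filters, constants of 0.1 and 1 on the log scale, other calls, the groups compared alone, the run of animal numbers in the fit, each library left out, and leaving out the libraries with atrial transcripts. The members and lists were chosen with earlier results of these data known. From each of the 3 basement membrane lists the 3 highest genes by fold change were named, among those past the threshold in TAC Veh against Sham Veh. Egflam was named as well, as the 1 gene of these lists that was lower.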

Additional observations from a re-analysis of the deposited data

Results flagged for a closer look

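Over the 34 groups of values checked for a library far from the rest, chance alone flags about 1 in 20. TAC 29P library S18, which held atrial transcripts, stood apart from the other 5 TAC 29P libraries in 4 measures. Its Col4a6 was high, at a log2 CPM of 2.20, and its Agrn was low, at a log2 CPM of 5.57. Its log2 ratio of Col4a6 over Col4a5 was high at −3.45, and so was that of Col4a5 and Col4a6 over Col4a1 and Col4a2, at −4.03. The change of Col4a4 with TAC was smaller in 29P than in Veh mice by an interaction of −0.60 on the log2 scale (past the unadjusted threshold, limma adjusted p = 0.998).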

How the results depend on the processing

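No paired analysis was possible because the library numbers in the labels are unique and no 2 groups share one. The number of genes higher in TAC Veh than in Sham Veh was 9 with each library left out, 10 with the run in the fit and 10 without the atrial libraries, where Col4a6 also passed, and 9 in the other alternatives. TAC 29P against Sham 29P gave 7 to 10 higher genes with 1 library left out. The 3 genes below TAC Veh in TAC 29P became 0 with the run in the fit and 0 with adjusted calls, and 0 to 3 with 1 library left out. Lower interactions numbered 2 under TMM, median-of-ratios scaling and a constant of 1, 0 with the run in the fit, without the atrial libraries (also with TMM, a setting chosen after seeing the data) and with adjusted calls, and 0 to 2 with 1 library left out. Sham 29P against Sham Veh gave 0 to 1 lower. The causes were not tested.

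Without the atrial libraries Col4a2 over Col4a1 in TAC 29P against Sham 29P was 0.065 (exact permutation p = 0.0179), Col4a4 over Col4a3 in TAC Veh against Sham Veh was −0.59 (exact permutation p = 0.10, the smallest for 3 against 3), and Col4a6 over Col4a5 there was 0.14. Under a constant of 1, Col4a6 over Col4a5 within TAC was 0.11. With 1 library left out, Col4a4 over Col4a3 ranged from −0.66 to −0.54 in TAC Veh against Sham Veh, from −0.65 to −0.22 in TAC 29P against Sham 29P and from −0.27 to 0.15 in Sham. Col4a2 over Col4a1 ranged from 0.023 to 0.065 in TAC 29P against Sham 29P and from −0.015 to 0.081 within TAC, and Col4a6 over Col4a5 from −0.34 to 0.11 within TAC. Col4a3 and Col4a4 over Col4a1 and Col4a2 ranged from −0.020 to 0.35 in TAC Veh against Sham Veh and from −0.051 to 0.68 in Sham, and Col4a5 and Col4a6 over Col4a1 and Col4a2 from −0.18 to 0.69 in Sham and from −0.22 to 0.15 within TAC. In Sham, Nid2 over Nid1 ranged from −0.29 to 0.11 and Agrn over Hspg2 from −0.15 to 0.12.

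Differences that had missed the threshold also turned in sign. Col4a6 in TAC Veh against Sham Veh was −0.11 under TMM and −0.12 under median-of-ratios scaling. Within TAC, Col4a2 was 0.011 without the atrial libraries and 0.035 with TMM as well. In Sham 29P against Sham Veh, Agrn was −1.14e-05 with a constant of 0.1, with or without the filter, and −0.000197 with a constant of 1. With the run in the fit Hspg2 was −0.060 and Agrn −0.22 there, and without the atrial libraries Col4a3 was −0.060, Col4a4 −0.069, Hspg2 −0.16 and Agrn −0.22, or with TMM as well −0.011, −0.020, −0.11 and −0.17. The interaction was −0.14 for Col4a1, −0.13 for Col4a2 and 0.063 for Agrn with the run in the fit, and −0.19 for Col4a6, 0.091 for Hspg2 and 0.058 for Agrn without the atrial libraries, or −0.22, 0.067 and 0.034 with TMM as well.

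With 1 library left out, the log2 fold change within TAC ranged from −0.42 to 0.050 for Col4a1, from −0.34 to 0.12 for Col4a2 and from −0.17 to 0.049 for Nid2, and that of Col4a6 in TAC Veh against Sham Veh from −0.13 to 0.68. In Sham 29P against Sham Veh the ranges were −0.69 to 0.12 for Col4a1, −0.64 to 0.20 for Col4a2, −0.023 to 0.51 for Col4a3, −0.45 to 0.076 for Nid2, −0.30 to 0.42 for Hspg2 and −0.18 to 0.29 for Agrn. For the interaction they were −0.26 to 0.55 for Col4a1, −0.30 to 0.54 for Col4a2, −0.14 to 0.39 for Nid2 and −0.56 to 0.16 for Hspg2.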
